A study of Mus musculus with 4 samples.

Results

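The cathepsins described here are 10 lysosomal proteases, chosen by gene symbol from the 18364 genes of an RNA-seq table of large peritoneal macrophages (LPMs). The 10 genes are *Ctsa*, *Ctsb*, *Ctsc*, *Ctsd*, *Ctsf*, *Ctsh*, *Ctsk*, *Ctsl*, *Ctss* and *Ctsz*, and all 10 were present in the table and passed the filter on low values. LPMs are the resident macrophages of the peritoneal cavity, and here they were sorted as F4/80+, MHCII-negative and CD102+ cells from C57BL/6 mice at 8 weeks of age. The comparison was of 2 libraries labelled Rxra-KO, from *LysM* Cre+ *Rxra* fl/fl mice, with 2 libraries labelled WT, which the study describes as *Rxra* fl/fl. Both groups therefore carry the floxed allele, Cre is named only for the Rxra-KO group, and the labels name no treatment. Cre is expressed from the *Lyz2* (LysM) locus and acts in myeloid cells generally, so the deletion is not restricted to LPMs. How many animals gave each library, and whether the libraries came from separate animals, is not given in the sources used here. The p-values therefore rest only on spread between these libraries, pooled largely over other genes, and that spread may be technical. The question put by the comparison is how loss of the retinoid X receptor RXRα, a nuclear receptor that pairs with other receptors to regulate transcription, alters the LPM transcriptome, and here its protease genes.

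Cathepsins are made as inactive proenzymes, carried to the endosome and lysosome largely by mannose-6-phosphate receptors, and activated there at acid pH. Most belong to the papain family of cysteine proteases, while cathepsin D is an aspartic protease and cathepsin A is a serine carboxypeptidase. In macrophages they degrade phagocytosed cells and proteins, trim antigens and the invariant chain of MHC class II, and, when secreted, cleave extracellular matrix. Cystatins and related proteins inhibit the cysteine cathepsins.

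Values are the deposited normalised read signal, close to CPM (reads scaled to a common library size), in which a single read was worth between 0.993 and 1.51. Recovered depth was 652542 and 947372 reads in WT against 629030 and 1047021 reads in Rxra-KO. Libraries are given in the order WT replicate 1, WT replicate 2, Rxra-KO replicate 1 and Rxra-KO replicate 2, and errors are SD over n = 2. *Rxra* itself was read 20 and 28 times in WT but 33 and 77 times where the label was Rxra-KO, which goes against the label, although its log2 fold change of 0.99 (SE 0.36) did not pass the test (adjusted p = 0.183). The table holds 1 value per gene, so reads from a transcript that lacks only the deleted part would still be counted, and directions below are those of the libraries as labelled. *Lyz2*, the gene that carries Cre, fell by 1.03 on the log2 scale (limma adjusted p = 0.00163). Cre at this locus and the *Rxra* deletion differ together between the groups and cannot be told apart. By the test used below, 0.969% of all genes were called lower and 1.32% higher. Of the 14 LPM markers 10 were called lower, with a summed value of 41728 and 44378 in WT and 21704 and 24089 in Rxra-KO. Most of that sum was *Prg4*, at 28429 and 29683 in WT and 15129 and 16567 in Rxra-KO. The 2 LPM markers above 0 were *Csf1r* and *Vsig4*, with log2 fold changes of 0.36 and 0.12, and neither was called. *Gata6*, the transcription factor that maintains LPMs, had values of 53.7 and 71.1 in WT and 5.27 and 24.3 in Rxra-KO. Of the 9 markers of small peritoneal macrophages (SPMs), the monocyte-derived macrophages of the same cavity, 7 were called higher, with a summed value of 376 and 125 in WT and 4338 and 5816 in Rxra-KO. *Cd209d* and *Clec4b1* of these were at 0 reads in both WT libraries. The study named the same 7 as raised SPM genes from these libraries, so their direction is not independent evidence. Not called were *Itgax* and *Cd226*. Values of *Itgax* were 8.33 and 13.6 in WT and 3.76 and 6.46 in Rxra-KO (log2 fold change -0.97, limma adjusted p = 0.753). *Cd226* had 1 and 2 reads in WT against 3 and 3 in Rxra-KO. Marker lists for 6 other cell types (mast, mesothelial, dendritic, B and T cells and neutrophils) summed to no more than 121 for any list and library. These sums leave out listed markers that were absent from the table. Present were 5 of 6 for mast cells, 4 of 5 for mesothelial cells and 6 of 6 for dendritic cells. For B cells 4 of 5 were present, for T cells 3 of 5 and for neutrophils 2 of 6. In those lists 2 genes were called, both higher, the T cell marker *Cd2*, at 0 reads in both WT libraries, and the dendritic cell marker *Cd209a*. The part of these marker differences in the cathepsin values was not tested, and in bulk RNA a change in the mix of cells and a change in RNA per cell cannot be told apart.

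Of the 10 cathepsins 3 rose in the Rxra-KO libraries, *Ctsb* 3.23-fold, *Ctsc* 2.98-fold and *Ctsl* 2.14-fold, and none of the 10 fell past the test. The other 7 did not pass, among them *Ctss*, the most abundant cathepsin of these cells. To be called, a gene needed a limma p below 0.05 after Benjamini-Hochberg adjustment over all genes and a log2 difference of 0.6 or more in size. Over all genes 2.29% were called, 1.32% higher and 0.969% lower, and among genes with a mean value of at least 100 the share was 12.2%. Of the 7 cathepsins with such a mean, 2 were called. The groups did not overlap for 7 of the 10 cathepsins, against 38.1% of all genes. Both Rxra-KO libraries lay above both WT libraries for 5 of them and below for 2, where all genes gave 18.8% and 19.3%. The median log2 fold change of the 10 was 0.27, or 0.41 for the 9 above the floor of 3 reads, beside 0.02 for all genes. The study named *Ctsb*, *Ctsc* and *Ctsl* from these same libraries, so their direction is not independent evidence. It also ran qPCR for genes of that set in LPMs lacking both RXRα and the isotype RXRβ, which is outside these data.

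*Ctsb* encodes cathepsin B, a cysteine protease that cuts both within chains and 2 residues at a time from the carboxyl end. Its values were 991 and 777 in WT and 3108 and 2609.6 in Rxra-KO, from 654, 716, 2064 and 2627 reads. The groups stood far apart, the lower Rxra-KO library being above the higher WT library by more than the gap within either group. The mean moved from 884 ± 151 to 2859 ± 353, a log2 fold change of 1.70 (SE 0.21, 95% interval 1.27 to 2.12, limma adjusted p = 5.39e-11). It stayed between 1.52 and 1.87 when any 1 library was left out, with adjusted p between 7.82e-09 and 0.000136.

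*Ctsc* encodes cathepsin C, or dipeptidyl peptidase 1, which removes dipeptides from the amino end and is known for activating granule serine proteases. Reads numbered 33 and 25 in WT against 81 and 111 in Rxra-KO, giving values of 50.7, 27.7, 123 and 111. The Rxra-KO libraries were close to each other and both well above WT, whose own libraries differed more. The mean moved from 39.2 ± 16.3 to 117 ± 8.46, with a log2 fold change of 1.61 (SE 0.32, 95% interval 0.98 to 2.24, limma adjusted p = 0.000129). At these counts the call rested on particular libraries: without WT replicate 2 the log2 fold change was 1.18 (adjusted p = 0.0751), and without Rxra-KO replicate 1 it was 1.54 (adjusted p = 0.104).

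*Ctsl* encodes cathepsin L, a cysteine endopeptidase with broad specificity. Its values were 691 and 761 in WT and 1220.3 and 1891.5 in Rxra-KO, from 456, 701, 810 and 1904 reads. Here the WT libraries were close and the Rxra-KO libraries were apart, with replicate 2 the higher. The mean moved from 726 ± 49.4 to 1556 ± 475, with a log2 fold change of 1.07 (SE 0.22, 95% interval 0.64 to 1.49, limma adjusted p = 0.000192). Without Rxra-KO replicate 2 the log2 fold change was 0.75 and the call was lost (adjusted p = 0.0926). Mouse *Ctsl* has several near copies expressed mainly in placenta, and of these *Cts8* had values of 18.9, 20.1, 20.3 and 18.4 while *Ctsq*, *Ctsr* and *Cts7* stood at 6.78 or less in every library. Reads shared between *Ctsl* and these copies could be assigned to either.

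**Figure D1:**
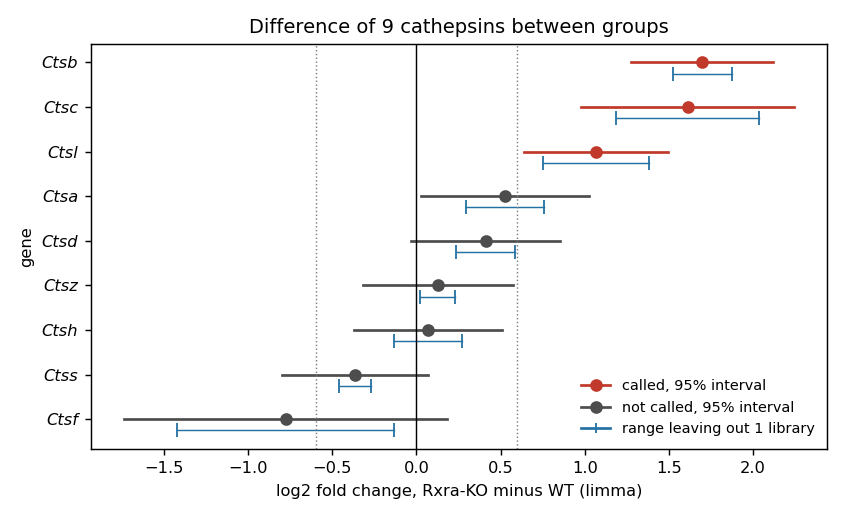
Log2 fold change of each cathepsin above the floor, Rxra-KO minus WT on the log2(value + 1) scale, with its 95% interval (thick line) and the range obtained when each library is left out in turn (thin bar), and dotted lines at 0.6 on either side of 0. *Ctsb*, *Ctsc* and *Ctsl* (red) have intervals above 0.6, and those of *Ctsd*, *Ctsf*, *Ctsh*, *Ctss* and *Ctsz* include 0.

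*Ctss* encodes cathepsin S, an endopeptidase that stays active at neutral pH and completes the breakdown of the invariant chain in antigen-presenting cells. It had values of 4255 and 4394 in WT and 3141.5 and 3583 in Rxra-KO. Both Rxra-KO libraries lay below both WT libraries. The mean was 4325 ± 98.1 in WT and 3362 ± 312 in Rxra-KO, but the log2 fold change of -0.37 (SE 0.22) did not pass the test (limma adjusted p = 0.623), and its 95% interval ran from -0.80 to 0.07. Leaving out any 1 library gave values between -0.46 and -0.27. *Ctsf*, which encodes cathepsin F, another endopeptidase that can process the invariant chain, was covered by 11 and 40 reads in WT against 9 and 17 in Rxra-KO. WT replicate 2 stood apart from the other 3 libraries, and the log2 fold change was -0.78 (SE 0.49, adjusted p = 0.651) with an interval from -1.74 to 0.18. Leaving out WT replicate 2 gave -0.13, and leaving out WT replicate 1 gave -1.42.

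*Ctsh* and *Ctsz* encode exopeptidases, cathepsin H being mainly an aminopeptidase and cathepsin Z a carboxypeptidase. *Ctsh* had values of 482 and 502 in WT and 448 and 592 in Rxra-KO; the Rxra-KO libraries lay on either side of WT. Its log2 fold change was 0.07 (SE 0.22, 95% interval -0.37 to 0.51, adjusted p = 0.981) and became -0.13 without Rxra-KO replicate 2. *Ctsz* had values of 375 and 417 in WT and 401 and 464 in Rxra-KO, which overlap. Its log2 fold change was 0.13 (SE 0.23, 95% interval -0.32 to 0.57, adjusted p = 0.953). A rise as large as that of *Ctsb* lies outside both intervals.

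The 2 members that are not cysteine proteases were higher in both Rxra-KO libraries without passing the test. *Ctsd*, for the aspartic protease cathepsin D, had values of 444 and 348 in WT and 478 and 572 in Rxra-KO. Its means were 396 ± 68.4 and 525 ± 66.1, with a log2 fold change of 0.41 (SE 0.22, 95% interval -0.03 to 0.85, adjusted p = 0.557). *Ctsa*, for cathepsin A, which also stabilises the lysosomal β-galactosidase and neuraminidase, had values of 182 and 132 in WT and 195 and 257 in Rxra-KO. Its means were 157 ± 35.8 and 226 ± 43.7, with a log2 fold change of 0.53 (SE 0.25, 95% interval 0.03 to 1.02). The interval, which is not adjusted for the number of genes, lies just above 0, and the adjusted p was 0.438.

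*Ctsk*, the gene for the bone-collagen protease cathepsin K of osteoclasts, was at the floor in both groups. Its reads were 3 and 1 in WT against 2 and 0 in Rxra-KO, and no fold is given. In the RefSeq annotation of GRCm38.p6 *Ctsk* and *Ctss* are neighbours on chromosome 3 with 0 protein-coding genes between them. The neighbours thus stood at opposite ends of the range of cathepsin levels.

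Levels of different genes were compared per kilobase of the first-numbered coding transcript in GENCODE M21. On this scale *Ctss* was the highest member in every library, at 3140.4 and 3243 in WT against 2318 and 2644 in Rxra-KO, and it ranked between 11 and 13 among 16059 genes with a length. In WT it was followed by *Ctsl* (351 and 386 per kb), *Ctsh* (298 and 310.3), *Ctsz* (260.0 and 289), *Ctsd* (231 and 181) and *Ctsb* (209 and 164), of which only the neighbours *Ctsd* and *Ctsb* overlap. *Ctsa* (50.04 and 36.2) and *Ctsc* (20.3 and 11.1) were lower, and the WT values of *Ctsc* and *Ctsf* (8.79 and 22.2) overlap. In the Rxra-KO libraries *Ctsl* (619 and 959.7 per kb) and *Ctsb* (655 and 550.2) stood next after *Ctss*, in an order that differed between the libraries. *Ctsb* moved from rank 283 and 403 in WT to rank 64 and 89 in Rxra-KO, and *Ctsl* from 148 and 153 to 68 and 45. *Ctsh*, *Ctsz* and *Ctsd* followed in Rxra-KO with overlapping values between 249 and 366 per kb. The order depends on the transcript used, since coding transcripts of *Ctsl* run from 1.97 kb, as used here, to 6.17 kb.

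The 10 values summed to 7495 and 7404 in WT against 9133 and 10098 in Rxra-KO, so the summed read signal was 1.29 times as large by group means. This signal is not divided by transcript length, so the sum is not a count of transcripts. A transcript of *Ctsb* (4.743 kb) weighs more in it than one of *Ctss* (1.355 kb). The sum per kilobase was not compared between the groups, so the ratio of 1.29 does not show a rise in the number of cathepsin transcripts. Cathepsin reads were 0.758% and 0.720% of all reads in WT against 0.964% and 0.971% in Rxra-KO. *Ctsb* added 1975 to the mean sum and *Ctsl* added 830, while the difference for *Ctss* was -962. Without *Ctsb* the sums were 6504 and 6627 in WT and 6025 and 7488 in Rxra-KO, which overlap. With *Ctsl* left out as well they were 5812 and 5866 in WT against 4804 and 5597 in Rxra-KO, with both Rxra-KO libraries below WT.

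The makeup of the summed signal moved from *Ctss* towards *Ctsb* and *Ctsl*. *Ctss* made up 56.8% and 59.3% of the summed value in WT and 34.4% and 35.5% in Rxra-KO. *Ctsb* went from 13.2% and 10.5% to 34.0% and 25.8%, and *Ctsl* from 9.22% and 10.3% to 13.4% and 18.7%. These shares do not depend on the scaling between libraries, but they are tied to each other, since a rise of 1 gene lowers the share of the rest. Per kilobase the share of *Ctss* was 68.7% and 69.8% in WT and 51.4% and 50.2% in Rxra-KO. The ratio of the *Ctsb* value to the *Ctss* value was 0.233 and 0.177 in WT and 0.989 and 0.728 in Rxra-KO. The same ratio of *Ctsb* to *Ctsd* was 2.23 and 2.24 in WT and 6.502 and 4.57 in Rxra-KO.

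**Figure D2:**
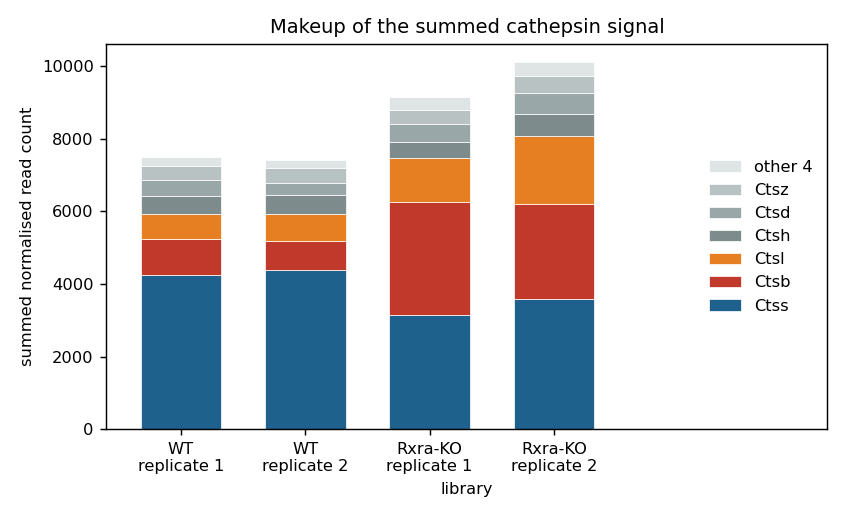
Makeup of the summed cathepsin value in each of the 4 libraries, as stacked bars starting at 0, with segments for *Ctss*, *Ctsb*, *Ctsl*, *Ctsh*, *Ctsd* and *Ctsz* and 1 for the other 4 members together. The bars reach 7495 and 7404 in WT against 9133 and 10098 in Rxra-KO, and the *Ctsb* segment is the one that grows most.

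The genes whose pattern lay nearest to that of *Ctsb* were looked for among 1736 other genes with a mean value of at least 100, by the Euclidean distance between centred log2 values over the 4 libraries. The nearest were *Pepd* (distance 0.215), *Wwp1* (0.223), *Serpinb6a* (0.290), *Fam126a* (0.3004) and *Kctd12* (0.303), with log2 fold changes between 1.52 and 1.84. *Pepd* encodes prolidase, a cytosolic dipeptidase, with values of 298 and 190.4 in WT and 891 and 726 in Rxra-KO. *Ctsc* lay at 0.373 from *Ctsb*, *Ctsl* at 0.953, and the other cathepsins between 1.26 and 2.76. The 5 genes were chosen for the smallest distance, so their nearness is a description over 4 libraries.

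The upstream bases of 4 members are shown, *Ctsc* and *Ctsl* that rose and *Ctsd* and *Ctss* that did not pass the test. Each sequence is the 250 bases before the RefSeq start in GRCm38.p6, 5′ to 3′ along the strand of the gene. Capitals mark CACGTG, the E-box at the core of the element bound by TFEB and its relatives, and GAGGAA or its complement TTCCTC, the core bound by the macrophage factor PU.1. The windows are chr7:88277835-88278084 on the plus strand for *Ctsc*, chr13:64370521-64370770 on the minus strand for *Ctsl*, chr7:142387828-142388077 on the minus strand for *Ctsd*, and chr3:95526536-95526785 on the plus strand for *Ctss*.
Ctsc: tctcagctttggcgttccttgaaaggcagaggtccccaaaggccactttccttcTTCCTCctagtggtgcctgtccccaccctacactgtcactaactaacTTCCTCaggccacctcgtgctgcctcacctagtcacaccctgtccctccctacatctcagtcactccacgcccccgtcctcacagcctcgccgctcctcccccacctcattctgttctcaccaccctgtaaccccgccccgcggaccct
Ctsl: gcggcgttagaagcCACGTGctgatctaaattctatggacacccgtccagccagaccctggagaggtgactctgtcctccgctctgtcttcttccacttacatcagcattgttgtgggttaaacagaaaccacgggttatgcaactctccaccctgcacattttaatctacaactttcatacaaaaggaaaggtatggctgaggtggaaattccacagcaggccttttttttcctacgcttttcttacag
Ctsd: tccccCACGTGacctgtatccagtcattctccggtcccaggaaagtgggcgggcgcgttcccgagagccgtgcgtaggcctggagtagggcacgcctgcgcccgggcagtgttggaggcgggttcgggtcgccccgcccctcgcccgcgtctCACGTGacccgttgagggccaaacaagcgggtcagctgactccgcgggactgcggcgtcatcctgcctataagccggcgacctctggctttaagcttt
Ctss: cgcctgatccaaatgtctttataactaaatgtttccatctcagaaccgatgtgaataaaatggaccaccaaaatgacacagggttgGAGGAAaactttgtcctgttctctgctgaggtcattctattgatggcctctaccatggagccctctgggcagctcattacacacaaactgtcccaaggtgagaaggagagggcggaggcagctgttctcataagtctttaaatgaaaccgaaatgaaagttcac

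RefSeq windows of 250 bases before to 50 after the start were held for 8 of the 10 members, with 2 windows for *Ctsa* and none for *Ctsb* and *Ctsh*. CACGTG, which reads the same on both strands, was in 4 of the 9 member windows, those of *Ctsa*, *Ctsd*, *Ctsf* and *Ctsl*, and in 7.15% of all 32851 windows. The longer TCACGTG, which contains it, was in 2 of the 9, those of *Ctsa* and *Ctsd*, and in 3.77% of all windows. GAGGAA on either strand was in 3 of the 9, those of *Ctsc*, *Ctsk* and *Ctss*, and in 28.3% of all. A pair of AGGTCA half-sites in the same direction with 1 to 5 bases between them, the form that RXR pairs bind, was in 0 of the 9 and in 0.0791% of all. Of the 3 called members only *Ctsc* and *Ctsl* have a window, and any relation between these letters and the fold changes was not tested.

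Cathepsins outside the 10 were few. Of 13 listed, 7 were in the table and none was called in either direction, where 2.29% of all genes were called. *Ctso*, for the cysteine protease cathepsin O, was the most abundant, with means of 107 ± 26.7 in WT and 106 ± 19.0 in Rxra-KO (log2 fold change -0.01, SE 0.28, adjusted p = 0.996), and its sign changed when single libraries were left out. *Ctse*, *Ctsw*, *Ctsq*, *Ctsr* and *Cts7* were at values of 11.3 or less in every library.

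Of 15 listed inhibitors 11 were in the table, with 1 called higher, 1 called lower and 9 not called. Over all genes 1.32% were called higher and 0.969% lower. *Cst3*, for cystatin C, the main secreted inhibitor of cysteine cathepsins, had values of 803 and 642 in WT and 696 and 801 in Rxra-KO. The groups overlapped, with a log2 fold change of 0.06 (SE 0.22, adjusted p = 0.981). The summed value of the 8 cysteine cathepsins was 8.55 and 10.8 times that of *Cst3* in WT and 12.1 and 11.6 times in Rxra-KO. These values are not divided by transcript length, and *Ctsb* (4.743 kb) is longer than *Cst3* (0.86 kb). The ratio is therefore not one of transcript numbers, and its rise does not show more protease transcripts per inhibitor transcript. The inhibitor that rose, *Serpinb6a*, is known as an intracellular inhibitor of serine proteases. It had values of 640 and 426 in WT and 1807.5 and 1861 in Rxra-KO, with a log2 fold change of 1.81 (SE 0.22, adjusted p = 3.03e-12). *Serpinb1a*, also an inhibitor of serine proteases, fell from 262 ± 36.1 to 141 ± 27.4, with a log2 fold change of -0.90 (SE 0.25, adjusted p = 0.0223). That call was lost when any 1 library was left out, with adjusted p between 0.0643 and 0.410, and with DESeq2 (adjusted p = 0.0859). *Ctla2b*, which resembles a cathepsin propeptide, had values of 41.6 and 64.5 in WT against 26.3 and 33.3 in Rxra-KO and did not pass (adjusted p = 0.438).

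Genes that sort, process or partner cathepsins were all in the table, 14 of 14. Of these 1 was called higher and none lower, beside 1.32% and 0.969% of all genes. The called gene, *Vps29*, a subunit of the retromer that returns sorting receptors from endosomes, was read 1 and 4 times in WT against 8 and 32 times in Rxra-KO. Its adjusted p of 0.0485 was lost without WT replicate 1 and without either Rxra-KO library, with adjusted p up to 0.731. With all 4 libraries kept it was also lost with DESeq2 size factors (0.0509), with a value of at least 10 required in 2 libraries (0.106) and with voom (0.0890). Another retromer subunit, *Vps35*, had values of 102 and 88.4 in WT and 141 and 170.3 in Rxra-KO (log2 fold change 0.70, adjusted p = 0.244). The sorting receptors differed in sign without passing: *M6pr*, for the cation-dependent mannose-6-phosphate receptor, had means of 67.9 ± 7.82 and 102 ± 8.59 (log2 fold change 0.58, adjusted p = 0.510), while *Sort1*, for sortilin, had 132 ± 20.1 and 86.7 ± 12.9 (log2 fold change -0.60, adjusted p = 0.419). *Glb1* and *Neu1*, for the enzymes that cathepsin A stabilises, had log2 fold changes of -0.18 and -0.09 and did not pass (adjusted p = 0.898 and 0.981). *Lgmn*, for the protease legumain that cleaves several cathepsins to their mature chains, had between 8 and 14 reads in every library.

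Among 29 other lysosomal hydrolases 1 was called higher and none lower, where all genes gave 1.32% and 0.969%. The median log2 fold change of the 29 was 0.19, with 19 above 0 and 10 below. Both Rxra-KO libraries lay above WT for 11 and below for 3, where all genes gave 18.8% and 19.3%. The gene called was *Naaa*, for an acid amidase, with values of 56.8 and 65.6 in WT and 117 and 151 in Rxra-KO (log2 fold change 1.11, SE 0.29, adjusted p = 0.0118). Leaving out any 1 library ended that call, with adjusted p between 0.0501 and 0.405, as did DESeq2 (adjusted p = 0.130), and the study named this gene too from these libraries. *Hexa*, the most abundant of the hydrolases, had values of 1574 and 1488 in WT and 1475 and 1608 in Rxra-KO, which overlap. The 4 listed regulators of lysosomal genes did not pass. *Tfeb* had 4, 4, 5 and 11 reads, *Mitf* had values of 12.9, 17.9, 21.8 and 28.3, and *Tfe3* had 99.2, 64.5, 55.0 and 49.2.

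**Figure D3:**
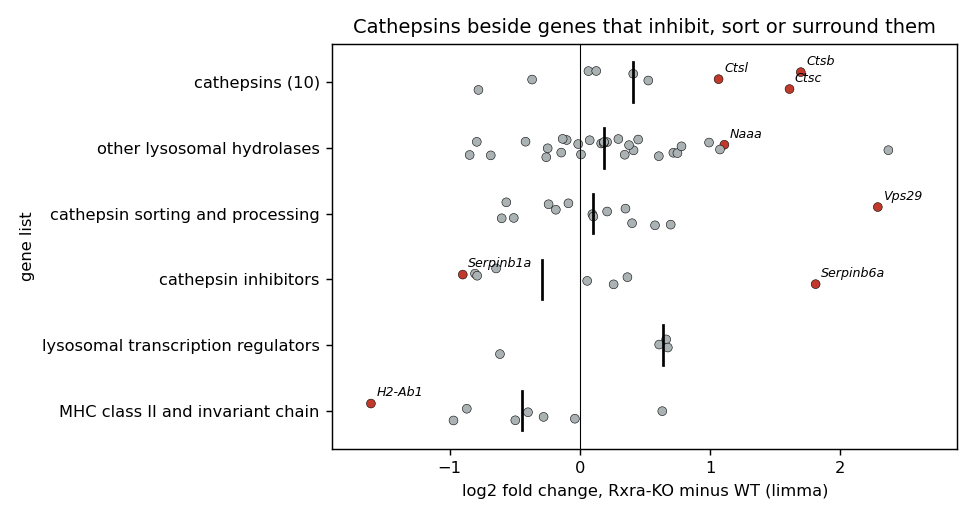
Log2 fold change (Rxra-KO minus WT, log2(value + 1) scale) of the cathepsins and of the genes in 5 related lists, with called genes in red, others in grey and a short line at the median of the genes drawn; points are spread vertically only for legibility. Genes with both groups at the floor are not drawn, and the called genes carry their names.

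Substrates and partners of single cathepsins were also examined, and the counts called stand beside 1.32% higher and 0.969% lower over all genes. For *Ctss*, 9 of 10 listed genes of MHC class II and its invariant chain were in the table, and 1 was called, *H2-Ab1*, an MHC class II β chain. Its reads, 241 and 2289 in WT against 106 and 614 in Rxra-KO, overlap, and its log2 fold change of -1.60 (adjusted p = 2.40e-06) became -0.22 (adjusted p = 0.918) without WT replicate 2. Without Rxra-KO replicate 1 it was -0.64 (adjusted p = 0.938), and the call was also lost with a value of at least 10 required in 2 libraries (adjusted p = 0.0658) and with DESeq2 (adjusted p = 0.9998). *Cd74*, the invariant chain, had values of 18.9 and 118 in WT against 11.3 and 49.2 in Rxra-KO and did not pass (adjusted p = 0.348). The sort gate named in the labels is MHCII-negative. For *Ctsc*, 3 of 7 listed serine proteases that it activates were in the table, *Prtn3*, *Cma1* and *Mcpt4*, at values of 12.5 or less in every library, and none was called. Of 7 matrix genes none was called, the most abundant being *Fn1*, for fibronectin, at 9950 and 8776 in WT and 5898 and 5939 in Rxra-KO (log2 fold change -0.66, adjusted p = 0.140). That value depended on the method, and *Fn1* passed with voom, edgeR and DESeq2 on recovered reads, with adjusted p of 7.21e-08, 0.0478 and 0.00845.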

How the data were processed

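RNA of sorted LPMs was measured in 4 bulk libraries, 2 labelled WT and 2 labelled Rxra-KO. Per the methods of the study, cDNA was amplified with SMART-Seq v4 reagents, without molecular identifiers, and sequenced on a NextSeq-500. The processing notes of the submitters name kallisto 0.43.0, limma and the human build GRCh38. The table carries mouse symbols, so the reference used was not settled. Samples that the study excluded for not grouping with their condition were not analysed here. Column names number the replicates otherwise than the sample titles, and the titles of the labels were followed.

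The values deposited by the authors are a normalised read signal, equal to the CPM of (reads + 0.5) on a TMM-scaled library size. Whole reads were recovered from the deposited signal for 100% of values (tolerance 0.001 read), and voom with TMM on these reads returned the table. Depth ranged from 629030 to 1047021 reads, with a median of 9 reads per gene and library. Reads are not independent molecules, so the floor of 3 reads per library covers counting error only.

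Each gene was fitted with limma 3.58.1 (R 4.3.3) with an empirical Bayes trend on log2(value + 1), which understates the change of low genes. limma was used, and not edgeR, because the values turned out to be normalised. All 4 libraries entered, with no covariate, and two-sided p-values were adjusted over 18364 genes by Benjamini-Hochberg. The filter, 2 or more libraries with a value of 1 or more, removed no gene. The script was tested on simulated data. The smallest two-sided p of an exact permutation test with 2 against 2 is 0.333, and the limma values lean on the spread of other genes (227 prior and 2 residual degrees of freedom). Alternatives were another pseudocount, scaling, filter or threshold, no trend, a replicate block, leaving out each library, and voom, edgeR 4.0.16 and DESeq2 1.42.0 on recovered reads. Of 156 listed genes 133 were in the table, 1 of them by an older symbol. Named are all members, the checks of the labels, genes of the cathepsin, inhibitor, sorting and regulator lists, called or most abundant genes of other lists and the 5 genes nearest to *Ctsb*. *Glb1*, *Neu1*, *Hexa*, *Cd74*, *Gata6*, *Prtn3*, *Cma1*, *Mcpt4* and *Fn1* were named for their role or level. *Csf1r*, *Vsig4*, *Cd226* and *Itgax* were named as macrophage markers that were not called. The members and lists were chosen with earlier results of these data known. Promoters were read from RefSeq (GRCm38.p6).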

Additional observations from a re-analysis of the deposited data

How the results depend on the processing

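*Ctsb*, *Ctsc* and *Ctsl* were called, and no other cathepsin was, under each other pseudocount, scaling, filter and threshold and by voom, edgeR and DESeq2. Without the trend, limma called 0 cathepsins (3 at an unadjusted p under 0.05), 0 genes in all and 0 in the other lists, against 3, 421 and 25. Leaving out 1 library gave 2 to 3 cathepsins, 167 to 381 genes and 15 to 21 genes of the other lists. Over all genes DESeq2 called 235 (128 higher) and edgeR 446. The log2 ratio of summed cathepsin values ran from 0.29, without Rxra-KO replicate 2, to 0.44. Signs changed with a library left out for *Ctsh* (-0.13 to 0.27), *Ctso* (-0.26 to 0.25), *Cst3* (-0.10 to 0.22) and *Cd74* (-2.26 to 0.32). Of the calls, 57.7% were higher, but 70.4% without WT replicate 2 and 44.8% without Rxra-KO replicate 2. The median over all genes moved by less than 0.1 with any other scaling.

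Whether same-numbered libraries were paired was not settled. Their deviations correlated at 0.04 over 18364 genes and at 0.06 over the 10049 with a mean value of at least 10. With a median of 9 reads per gene and library, counting error can hide a shared deviation, so these values cannot exclude pairing. Replicate 2 was the deeper library in both groups. With the replicate block 540 genes were called, against 421 without it, and still 3 cathepsins. Depth limits *Ctsk*, *Ctsf*, *Ctsc* and *Tfeb*, with few reads a library, and the cause of the changes above was not tested.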
